A study of Mus musculus with 6 samples.

Results

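The VPS34 kinase complex and its regulators were followed through 7 genes, Nrbf2, Becn1, Atg14, Pik3c3, Pik3r4, Uvrag and Rubcn. The table of linear transcripts holds 54787 gene symbols with isoforms that share exons with their gene. Linear isoforms that carry one of the 7 symbols and share exons with the gene were summed per gene, which took 63 of 175010 isoforms of any kind. Circular RNAs (circRNAs) were added where the table gave a member, or one of its isoforms, as the host, which took 11 of 17369. Nrbf2 was singled out for its difference between the groups in these same libraries, so it was chosen by its counts and FPKM in that contrast, which are given as a description without a test. The other 6 genes were taken as its partners in the complex.

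RNA came from the prefrontal cortex of male C57BL/6 mice, with ribosomal RNA removed by Ribo-Zero and libraries made with a stranded kit. The control group received water (0 mg/kg) and the PS_high group 50 mg/kg polystyrene nanoparticles, in both cases by gavage each day for 6 months. The mice entered at 5 weeks of age and tissue was taken at 30 weeks, with 3 samples in each group. The labels list separate samples without naming the animals, so the p-values measure only the spread between these samples, which may be technical. In such tissue RNA, fewer cells of a type and less RNA per cell cannot be told apart.

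VPS34, the product of Pik3c3, is the lipid kinase that makes phosphatidylinositol 3-phosphate (PI3P), a membrane mark that recruits the machinery of autophagosome formation and of endosomal sorting. It works in a core with the scaffold VPS15 (Pik3r4) and Beclin 1 (Becn1). This core joins either ATG14, which directs it to autophagosome formation, or UVRAG, which directs it to endosomes. NRBF2 binds the ATG14 form, and Rubicon (Rubcn) binds the UVRAG form and restrains it. In neurons these complexes serve the turnover of proteins and organelles in axons and synapses.

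The libraries held 53344395 to 66004386 estimated linear counts and 15658 to 19957 back-splice reads. On the first principal component of 2000 genes (26.8% of the variance), PS_high 1 stood apart at a score of 57.0, against -28.3 to 14.4 for the other 5 libraries. Summed FPKM of cortical excitatory neuron markers was 272 to 359 in the controls and 310 to 349 in PS_high. The summed choroid plexus markers ranged from 6.05 to 238 in the controls and from 10.6 to 469 in PS_high, and those of red blood cells from 152 to 383 and from 89.3 to 256. By fold difference, 5 of 5 choroid plexus markers were above 0, and 0 of 5 red blood cell markers were. Oligodendrocyte markers summed to 267 to 309 FPKM in the controls and 224 to 278 in PS_high, with all 5 lower by fold difference. Fibroblast markers of meninges and vessels summed to 114 to 152 and 149 to 230, with all 5 tested higher. The 4 olfactory bulb markers summed to 3.06 to 5.34 FPKM and 2.01 to 6.39, with Th and Eomes under 0.1 everywhere. The summed ranges of the groups overlapped for every list, and the part of these cell types in the results below was not tested.

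Sequences around the starts of members are shown because 3 members share the motif CACGTG, the E-box core recognised by basic helix-loop-helix factors such as TFEB, a regulator of autophagy genes. Windows of 300 bases (250 before and 50 after the start) from RefSeq on GRCm38.p6 were matched by symbol for 5 of the 7 members, with 6 windows in all since Rubcn has a second start. No source used here names the genome build of the tables, whose positions are printed as they stand. The first sequence holds the 250 bases before the Nrbf2 start, with CACGTG and the GC box GGGCGG, on either strand, in capitals. The others hold CACGTG and the bases before it in Atg14, where the motif begins 1 base before the start and runs past it, and CACGTG with both flanks 88 bases before one start of Rubcn, each 5′ to 3′ on the minus strand. The Atg14 start used, 47568434, is that of the isoform ENSMUST00000042988, which had counts in control 2 alone. ENSMUST00000226299, the Atg14 isoform with the highest mean count, begins at 47570649, outside the window.
Nrbf2, chr10:67285282-67285531: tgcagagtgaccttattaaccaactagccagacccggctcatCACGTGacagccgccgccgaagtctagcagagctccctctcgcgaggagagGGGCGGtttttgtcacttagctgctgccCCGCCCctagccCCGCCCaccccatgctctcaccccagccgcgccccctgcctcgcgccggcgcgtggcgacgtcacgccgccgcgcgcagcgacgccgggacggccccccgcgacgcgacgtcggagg
Atg14, chr14:47568430-47568455: cctggataaaaacaaaatccCACGTG
Rubcn, chr16:32868429-32868474: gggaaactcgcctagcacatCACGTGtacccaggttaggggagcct
CACGTG, which reads the same on both strands, was found in 7.15% of all 32851 windows of this length. CGGAAGT, the core recognised by ETS factors, was found on either strand in windows of Nrbf2, Pik3r4 and Rubcn and in 6.42% of all windows. GGGCGG was found in 4 of the 5 members and in 35.7% of all windows. TGACGTCA, the cyclic AMP response element, was found in none of the 5 and in 1.79% of all windows. No match overlapped a match of another motif. A match describes letters in a window and shows no binding.

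Nrbf2 RNA was low in the controls and about 2.34-fold higher in PS_high. Summed over isoforms, its level was 1.48, 1.62 and 1.54 FPKM (fragments scaled to transcript length and library depth) in controls 1 to 3 and 3.29, 3.23 and 4.02 FPKM in PS_high 1 to 3. All PS_high libraries lay above all controls, and the SD of the PS_high libraries was the larger. Counts scaled to depth (CPM) were 4.20 ± 0.166 in the controls and 9.81 ± 1.18 in PS_high (mean ± SD, n = 3). The edgeR log2 difference was 1.23 ± 0.20 (SE), given without a p or an interval because the gene was chosen for it. Among the 20272 genes tested (mean of at least 0.5 FPKM), 170 had a larger log2 difference (0.839%), and 3.34% had PS_high above control in CPM without overlap. Without PS_high 1, the library that stood apart, the difference was likewise 1.23.

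**Figure D1:**
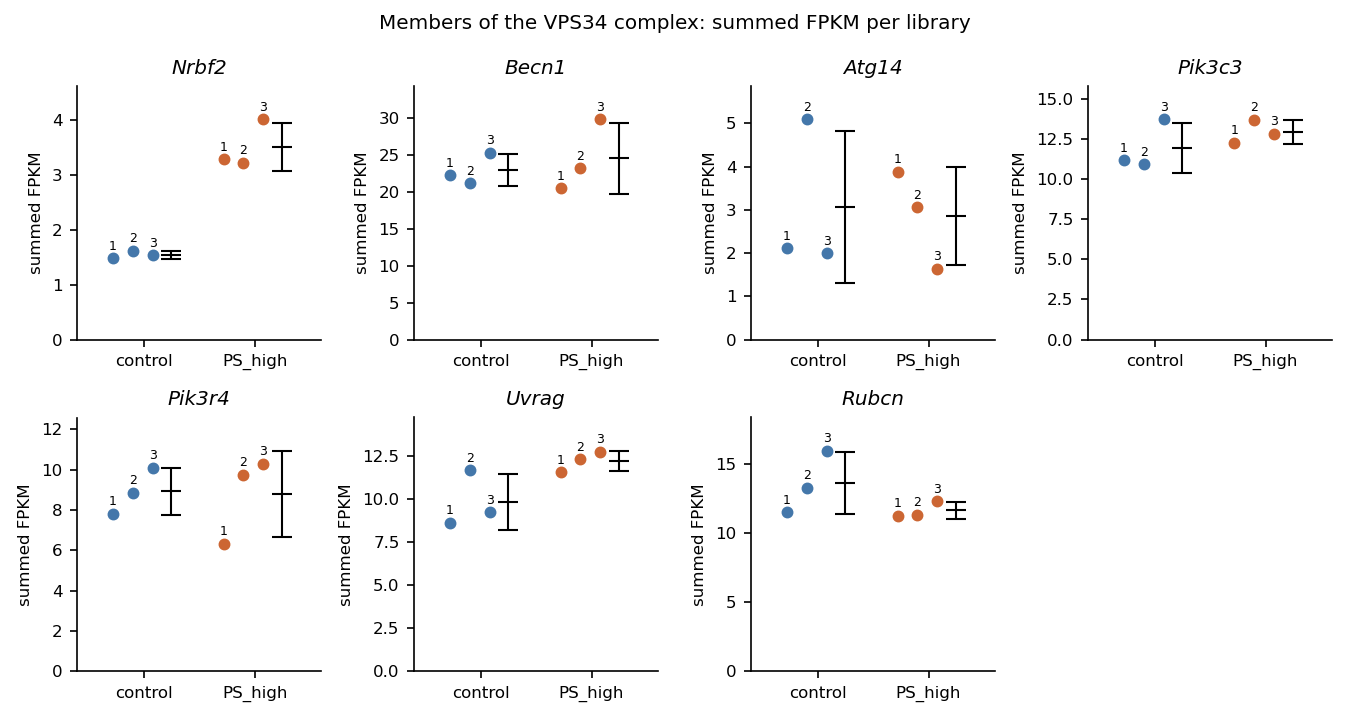
Summed FPKM (y axis, from 0, own scale per panel) of each of the 7 genes in the 3 control and 3 PS_high libraries (points, numbered by replicate), with the mean and SD beside each group. The Nrbf2 points of PS_high lie between 3.23 and 4.02 FPKM, above the controls at 1.48 to 1.62 FPKM, while the points of the other 6 genes overlap between groups.

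Nrbf2 has 3 isoforms in the table, and the difference was spread over more than one of them. The annotated coding isoform ENSMUST00000077839 (4 exons, 1813 bases, spanning chromosome 10, 67266689 to 67285305 in the table) had 209, 217 and 219 estimated counts in the controls and 384, 370 and 300 in PS_high. It was higher in every PS_high library and made up 60.8% of the difference in mean CPM. The assembled isoform MSTRG.3868.2, with 2 exons at the 3′ end of that span, had no counts in the controls or in PS_high 2, 70 in PS_high 1 and 250 in PS_high 3. It was too low on average to be tested. The third isoform had at most 3 counts in any library. With annotated isoforms alone the gene's log2 difference was 0.87. Relative to Pik3c3 RNA, the summed FPKM of Nrbf2 was 13.3%, 14.8% and 11.2% in the controls and 26.8%, 23.5% and 31.4% in PS_high. This ratio rests on the same Nrbf2 values that chose the gene, and adds no evidence of its own.

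The 3 genes of the shared core had levels that overlapped between the groups. Pik3c3, the kinase, was at 11.2, 10.9 and 13.7 FPKM in the controls and 12.3, 13.7 and 12.8 FPKM in PS_high. Pik3r4, the scaffold, was at 7.81, 8.85 and 10.1 FPKM against 6.33, 9.76 and 10.3 FPKM. Becn1 was at 22.3, 21.2 and 25.3 FPKM against 20.5, 23.3 and 29.9 FPKM. Their log2 differences were 0.06 ± 0.13 for Pik3c3, 0.07 ± 0.15 for Pik3r4 and 0.01 ± 0.13 for Becn1 (edgeR, ± SE), and each had an adjusted p of 0.9997. The 95% interval for Becn1 was -0.30 to 0.32.

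Of the subunits that steer the core, Atg14 was uneven between libraries. It was at 2.11, 5.10 and 2.00 FPKM in the controls and 3.88, 3.06 and 1.64 FPKM in PS_high, so that control 2 was the highest of all 6 and the groups overlapped. The log2 difference was -0.28 ± 0.53 (95% interval -1.52 to 0.97, edgeR adjusted p = 0.9997), and without control 2 it was 0.49. Uvrag was at 8.61, 11.7 and 9.21 FPKM in the controls and 11.5, 12.3 and 12.7 FPKM in PS_high, where control 2 lay above the lowest PS_high library. In depth-scaled counts (CPM) control 2, at 65.3, was the highest of all 6, against 57.3 to 64.8 in PS_high. Uvrag's log2 difference of 0.22 ± 0.20 had an unadjusted p of 0.2999 and an adjusted p of 0.9997 in edgeR.

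Rubcn, which encodes the inhibitor of the UVRAG form, was the only partner whose depth-scaled counts did not overlap. It had 67.9, 66.3 and 73.7 CPM in the controls and 51.9, 55.9 and 62.1 CPM in PS_high, lower in each PS_high library. Of all genes tested, 7.09% had CPM values without overlap, 3.75% with PS_high lower. In FPKM, where 7.01% of genes were without overlap, the Rubcn groups overlapped, at 11.5, 13.3 and 15.98 against 11.2, 11.3 and 12.3. The log2 difference was -0.29 ± 0.14 (95% interval -0.61 to 0.03), with an unadjusted p of 0.0684 and an adjusted p of 0.9997 in edgeR.

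None of the 6 partners was called by edgeR at an adjusted p under 0.05, against 0.0247% of all genes. DESeq2, which called 0.232% of all genes, and limma, which called 0, called none of them either. None had an unadjusted p under 0.05, a mark passed by 2.73% of all genes in edgeR, 3.31% in DESeq2 and 2.89% in limma. Their median log2 difference was 0.03, with 4 above and 2 below 0, beside a median of -0.0075 over all genes. Without PS_high 1 none was called.

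**Figure D2:**
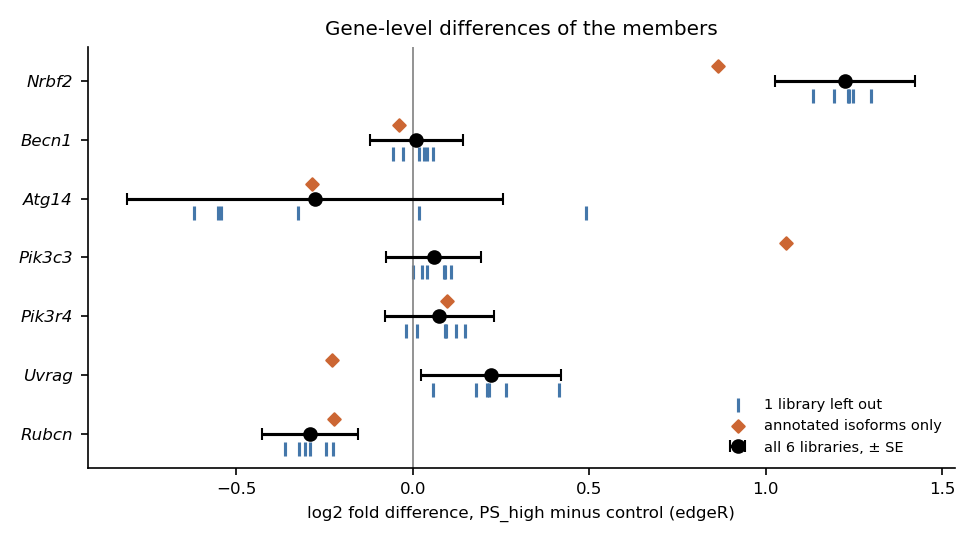
Log2 fold difference of each gene (x axis, PS_high minus control, edgeR; bars are the SE over 3 against 3 libraries), with the values after leaving out 1 library (blue ticks) and with annotated isoforms only (orange diamonds). Nrbf2 stays between 1.13 and 1.30 with a library left out, Atg14 ranges from -0.62 to 0.49, and the annotated isoforms alone put Pik3c3 at 1.06 and Uvrag at -0.23.

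The order of levels was compared on FPKM, which accounts for length. In the controls the order of mean levels ran from Becn1 through Rubcn, Pik3c3, Uvrag, Pik3r4 and Atg14 to Nrbf2, at 23.0 ± 2.13 for the first and 1.55 ± 0.0701 for the last (SD, n = 3). The ranges of Rubcn and Pik3c3, of Pik3c3 and Uvrag, and of Uvrag and Pik3r4 overlapped, while Becn1, Atg14 and Nrbf2 each stood clear of their neighbours. In PS_high the mean of Nrbf2, 3.51 ± 0.441, was above that of Atg14, 2.86 ± 1.13, and their ranges overlapped.

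Ratios between members were formed within a library, so that depth cancels. The log2 ratio of Rubcn to Uvrag FPKM was 0.42, 0.19 and 0.80 in the controls and -0.04, -0.12 and -0.05 in PS_high, lower in every PS_high library. The difference of -0.54 had an exact two-sided permutation p of 0.1, the smallest that 3 against 3 samples allow, and 0.4 after adjustment over the 4 ratios tested. With annotated isoforms only it was 0.054, in the other direction. The ratios of Atg14 to Uvrag, Becn1 to Pik3c3 and Pik3r4 to Pik3c3 overlapped between groups, with exact permutation p-values of 0.6 to 1. With annotated isoforms only, the difference of Becn1 to Pik3c3 moved from -0.04 to -1.84 and that of Pik3r4 to Pik3c3 from -0.16 to -1.86.

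The isoforms behind these totals varied from library to library, also within a group. Of the 63 member isoforms, 14 had at least 100 estimated counts in a library and at most 2 in another, and 11 of these did so within a single group. For Atg14, the coding isoform ENSMUST00000042988 had 907 counts in control 2 and none in the other 5 libraries, while ENSMUST00000226299 had none in control 2 and 212 to 503 in the others. For Pik3c3, the annotated ENSMUST00000115812 had 31, 190 and 3140 counts in the controls and 1565, 2550 and 2489 in PS_high. The assembled MSTRG.18275.4 had 3038, 2166 and 318 against 1494, 94 and 39. A further isoform annotated as nonsense-mediated decay, ENSMUST00000131405, had 26, 357 and 18 against 4, 93 and 419. ENSMUST00000115812 and MSTRG.18275.4 traded places, also between controls, while the gene total lay between 2826 and 3590 counts in all 6 libraries.

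The isoforms of Uvrag were uneven as well. Its annotated coding isoform ENSMUST00000037968 had 757, 2123 and 2007 counts in the controls and 1893, 508 and 759 in PS_high. The assembled MSTRG.36242.3 had 1437 counts in PS_high 3 and at most 5 elsewhere. Another assembled isoform, MSTRG.36242.4, had 855 counts in PS_high 2, 32.9% of the Uvrag counts in that library, and at most 26 elsewhere. Its span also covers nearly all of Dgat2, the neighbouring gene on the same strand. The next most abundant isoform, the retained-intron ENSMUST00000208609, had 692, 874 and 559 counts against 606, 868 and 339. With annotated isoforms alone Uvrag's log2 difference was -0.23, against 0.22 with all isoforms.

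Rubcn has a distal and a proximal start in the table. Isoforms from the distal start held 62.1%, 56.0% and 12.5% of its counts in the controls and 49.5%, 24.1% and 57.7% in PS_high. Those from the proximal start, where the printed window lies, held 16.2%, 18.3% and 46.5% against 0.661%, 58.3% and 16.9%. Isoforms that begin further inside the gene held the rest, 21.7%, 25.7% and 41.0% against 49.9%, 17.6% and 25.4%. Each of these shares overlapped between groups. The most abundant isoform, the assembled MSTRG.15262.2 from the distal start, had 1009, 1204 and 505 counts against 481, 468 and 1358. ENSMUST00000140229, a retained-intron isoform, had 1397 in control 3, 832 in PS_high 1 and 40 to 463 in the rest. The distal end also overlaps Fyttd1 on the opposite strand. Becn1 counts came mostly from isoforms annotated as retained introns, 77.4% ± 6.8 in the controls and 81.0% ± 6.8 in PS_high (SD, n = 3). Between the 2 most abundant of these, ENSMUST00000139997 had 4 to 3906 counts in the controls and ENSMUST00000122817 had 127 to 2941. The share of each partner's most abundant isoform gave exact permutation p-values of 0.2 to 1, none at the smallest possible.

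**Figure D3:**
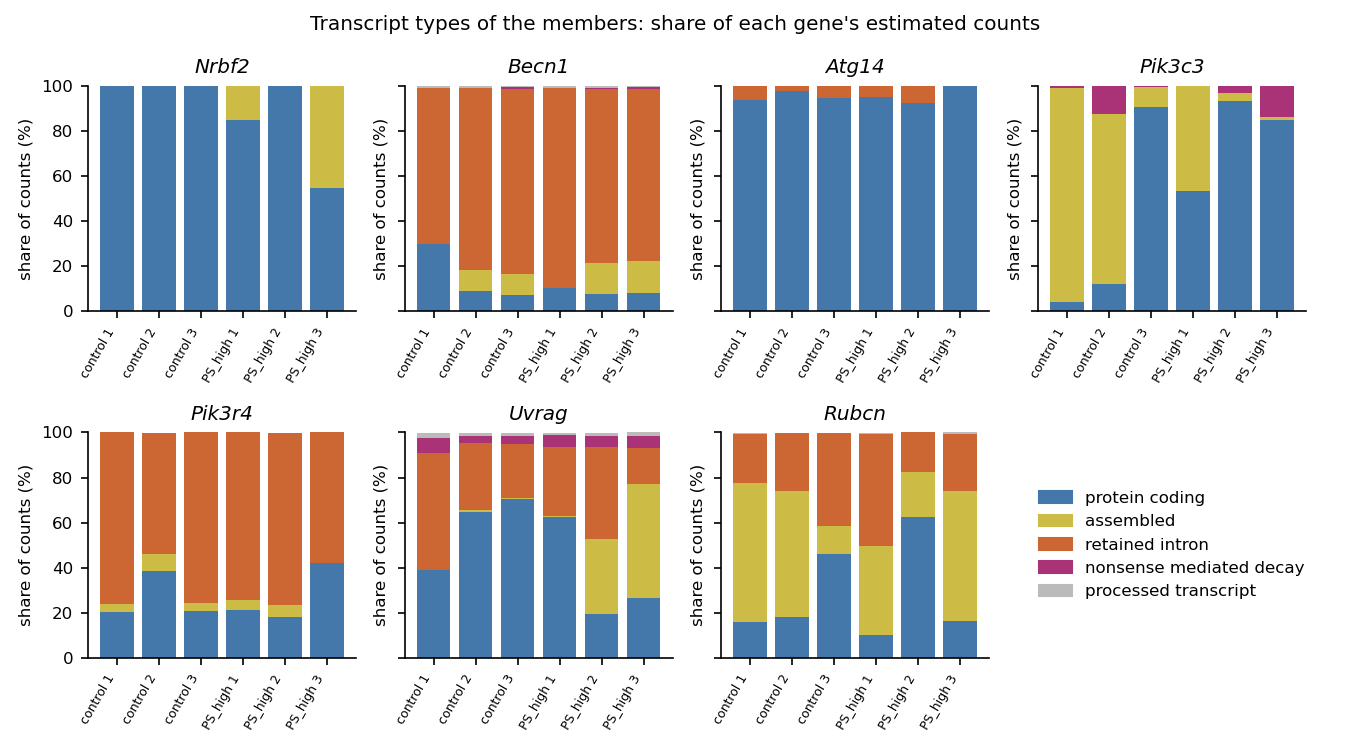
Share of each gene's estimated counts (y axis, percent, 0 to 100) by annotated transcript type, 1 bar per library, control 1 to 3 then PS_high 1 to 3. The assembled share of Pik3c3 runs from 1.28% to 94.9% over the 6 libraries and the retained-intron share of Becn1 from 69.6% to 88.9%.

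The lowest p-values among partner isoforms were those of Pik3r4. Of 40 partner isoforms tested, edgeR called none, against 0.00433% of all 69333 isoforms, and 3 had an unadjusted p under 0.05 (7.5%, against 3.58% of all). All 3 belonged to Pik3r4. DESeq2 called the same 3, and it called 1.41% of all isoforms, with 7.48% at an unadjusted p under 0.05. limma called none, against 0.0317% of all, with 3 at an unadjusted p under 0.05, against 3.75%. The retained-intron isoform ENSMUST00000187446 had 206, 221 and 260 counts in the controls and 460, 375 and 423 in PS_high. It was higher in every PS_high library, by 1.01 ± 0.23 on the log2 scale (edgeR unadjusted p = 0.00623, adjusted p = 0.99998).

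The coding fragment ENSMUST00000186943 (770 bases) had 11, 18 and 22 counts against 42, 35 and 90, a log2 difference of 1.84 ± 0.51 (edgeR unadjusted p = 0.0131). Its DESeq2 adjusted p of 0.04999 lay only just under the threshold. ENSMUST00000188385, a short retained-intron isoform, had 43, 46 and 52 counts against 12, 18 and 22, and its log2 difference was -1.28 ± 0.36 (unadjusted p = 0.0145). For both, the groups did not overlap. A further retained-intron isoform, ENSMUST00000191117, had 235, 146 and 231 counts against 226, 308 and 274, with a log2 difference of 0.56 (unadjusted p = 0.149). In all, 5 of the 40 isoforms had CPM without overlap (12.5%, against 7.86% of all isoforms). They included a retained-intron isoform of Rubcn, ENSMUST00000135480, with 196, 221 and 73 counts against 255, 235 and 236. The 2 most abundant Pik3r4 isoforms overlapped between groups. The retained-intron ENSMUST00000187573 had 767, 414 and 810 counts against 524, 571 and 108, and the coding ENSMUST00000065778 had 333, 434 and 313 against 3, 264 and 610.

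**Figure D4:**
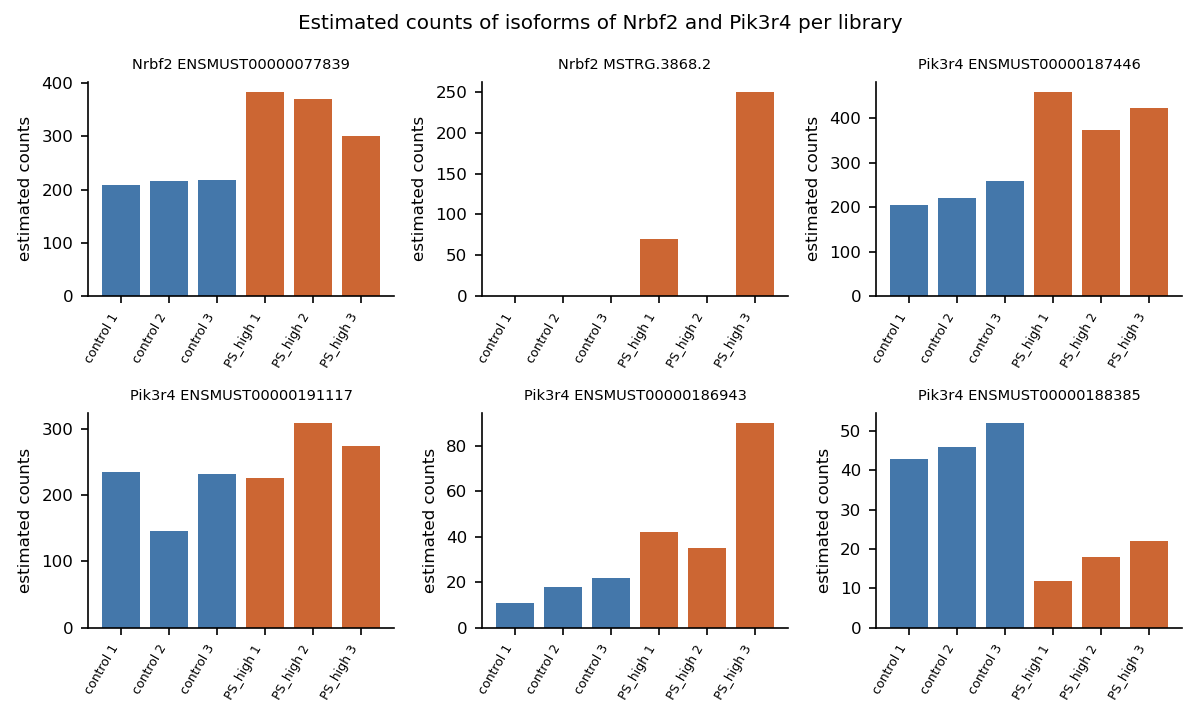
Estimated counts (y axis, from 0, own scale per panel) of 2 isoforms of Nrbf2 and 4 of Pik3r4 in each library (blue control, orange PS_high). The annotated Nrbf2 isoform is at 300 to 384 in PS_high and 209 to 219 in the controls, while MSTRG.3868.2 has counts in PS_high 1 and 3 alone.

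Circles were few. Uvrag had 6 circRNAs with 48 back-splice reads in all, Pik3c3 4 with 13 reads, Pik3r4 1 with 1 read, and Nrbf2, Becn1, Atg14 and Rubcn none listed. The most abundant, mmu_circ_0001601 of Uvrag, had 7, 7 and 5 reads in the controls and 5, 8 and 2 in PS_high, which overlap. Its log2 difference was -0.11 ± 0.81. The next at Uvrag, circRNA1912, had 1, 1 and 1 reads against 0, 2 and 0, and the circle of Pik3r4, circRNA13698, had its read in PS_high 2. The circRNA with most reads at Pik3c3, mmu_circ_0007212, had 2, 3 and 0 reads against 0, 0 and 2, a log2 difference of -1.03 ± 1.51 that ran from -3.75 to -0.33 with a library left out. All 3 member circRNAs with reads in at least 3 libraries had an adjusted p of 0.976 in edgeR, and none was called or had an unadjusted p under 0.05 in edgeR or DESeq2. Of all circRNAs 0.0305% were called in either tool, and 4.95% in edgeR and 0.794% in DESeq2 had an unadjusted p under 0.05. Per 1000 linear counts, Uvrag gave 3.56 ± 0.527 circular reads in the controls and 2.40 ± 1.41 in PS_high (SD, n = 3, exact permutation p = 0.3). Pik3c3 gave 1.07 ± 0.593 and 0.329 ± 0.570 (exact permutation p = 0.3). In both genes the groups overlapped, and 3 against 3 samples allow no p below 0.1.

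The genes around the complex were taken as 9 lists with 127 symbols, 116 of them tested. edgeR and DESeq2 called none of them. In edgeR 2 had an unadjusted p under 0.05 (1.72%, against 2.73% of all genes), and in DESeq2 1, against 3.31% of all genes passing that mark. Of the 116, 57 were above and 59 below 0, with a median log2 difference of -0.00014, and 48.5% of all genes were above 0. The 6 genes with CPM without overlap (5.17%) compare with 7.09% of all genes. For 16 of the 18 list genes named below, leaving out 1 library moved the log2 difference by over 1.5 times or turned it, the exceptions being Pik3cb and Rheb. The 9 list medians ran from -0.08 for the ULK initiation complex to 0.18 for the LC3 and GABARAP proteins.

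Upstream, 1 of 5 ULK kinase subunits was above 0. Atg13, the kinase's adaptor, had 95.4 to 111 CPM in the controls and 96.0 to 99.5 in PS_high. Atg101, its partner, had a log2 difference of -0.31 ± 0.24. In the list of upstream regulators, 10 of 19 were above 0. Rheb, the activator of mTORC1, had a difference of -0.26 ± 0.15. Foxo1, a transcription factor, was at 32.4, 41.2 and 39.7 CPM against 42.9, 41.8 and 52.7, without overlap but with an unadjusted p of 0.144 in edgeR.

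Downstream of PI3P, 1 of 10 genes of PI3P binding and lipid supply was above 0. Wipi1, a PI3P reader, had a log2 difference of -0.59 ± 0.40. Atg9a, a lipid scramblase of the growing membrane, had 14.0 CPM in PS_high 1 and 30.5 to 39.4 in the other 5 libraries. Its log2 difference of -0.39 was -0.059 without PS_high 1. Among the conjugation genes 4 of 11 were above 0, with Atg4b, which processes LC3, at -0.30 ± 0.20 and Atg16l1 at -0.13 ± 0.14. Map1lc3b, an LC3 gene, had a difference of 0.35 ± 0.31, which was 0.046 without control 3, the lowest library. Gabarap had one of 0.20 ± 0.33. At endosomes 13 of 24 were above 0. Mtmr4, a phosphatase that removes PI3P, was at -0.51 ± 0.25 (edgeR unadjusted p = 0.0803), and at -0.25 without control 3, the highest library. Hgs, which sorts ubiquitinated cargo, was at 0.30 ± 0.21.

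Among the receptors, 9 of 11 were above 0. Tollip, which binds ubiquitinated cargo, had 15.0, 11.9 and 14.6 CPM in the controls and 154, 19.9 and 13.1 in PS_high. The high value was that of PS_high 1 alone, and the log2 difference of 2.17 ± 0.87 became 0.26 without it. Nbr1, another receptor, was at -0.29 ± 0.20. Of the regulators of the complex 12 of 22 were above 0. Nedd4, a ubiquitin ligase, had 361, 352 and 354 CPM against 471, 386 and 397, without overlap and with an unadjusted p of 0.121 in edgeR. Rab7, the GTPase of late endosomes, had 62.7 CPM in PS_high 1, 124 and 130 in the other PS_high libraries and 131 to 151 in the controls, also without overlap (unadjusted p = 0.192). Its log2 difference of -0.39 was -0.11 without PS_high 1 and 0.97 with annotated isoforms only.

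Of the other phosphoinositide 3-kinases, 4 of 10 were above 0. Pik3cb, a catalytic subunit of class I, had 47.2, 47.8 and 42.3 CPM in the controls and 65.4, 50.8 and 62.9 in PS_high, all higher. Its log2 difference of 0.38 ± 0.15 had an unadjusted p of 0.0400 and an adjusted p of 0.9997 in edgeR. With annotated isoforms only it was -0.42, in the other direction. Pik3r2, a regulatory subunit, was at -0.22 ± 0.25.

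**Figure D5:**
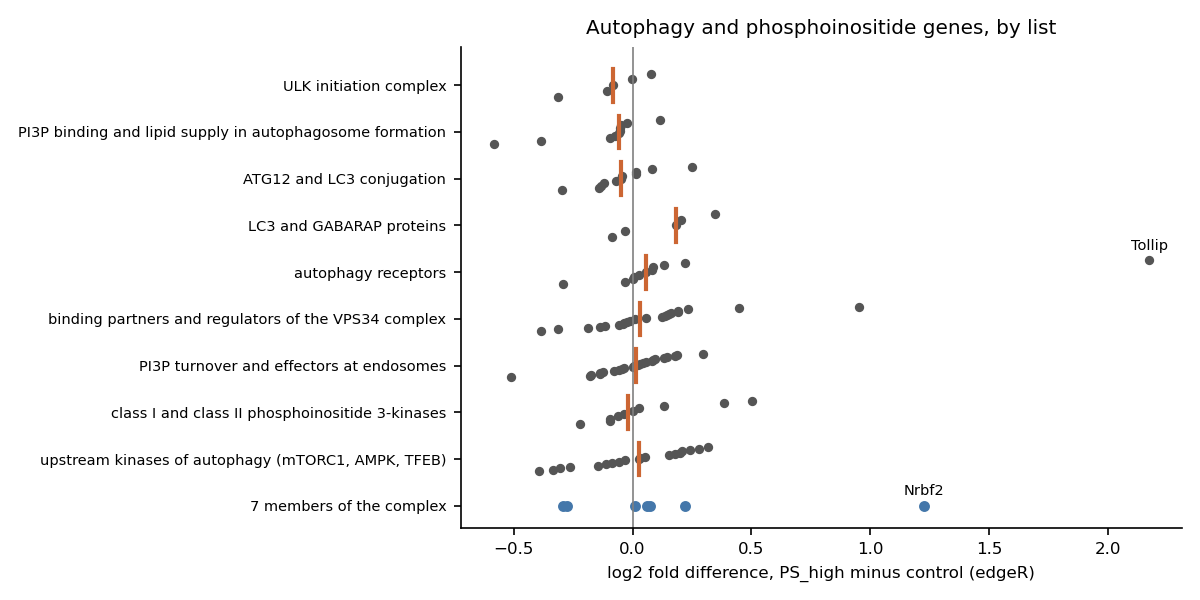
Log2 fold difference (x axis, PS_high minus control, edgeR) of each tested gene (points) in the 9 lists and of the 7 members in the bottom line, with the median of each list as an orange bar. The list medians lie between -0.08 and 0.18, Tollip stands at 2.17 and Nrbf2 at 1.23.

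The genes whose profile over the 6 libraries was most like that of Nrbf2 were Ypel5 (Pearson r of log2 CPM 0.987), Sprn (0.979), Ahdc1 (0.979), Pfkfb4 (0.977) and Fam104a (0.973), among 9002 genes with a mean of at least 10 CPM, 36 of which had r of at least 0.9. Predicted genes (symbols with a Gm number, Rik or -ps) were left out of this ranking. The 6 points share the groups and library depths, and r here is a description. Sprn had 14.1, 13.9 and 14.7 CPM in the controls and 61.0, 77.0 and 77.8 in PS_high. The partners' r with Nrbf2 was -0.82 for Rubcn and 0.49 for Uvrag, with -0.15 to 0.25 for the other 4.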

How the data were processed

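The deposited tables cover prefrontal cortex of 3 control and 3 PS_high samples. Per the submitters' processing notes the authors used HISAT2, StringTie and TopHat, with versions and genome build not given in the sources used here. Linear isoforms carry deposited FPKM values and deposited estimated counts, which were whole numbers, so none was rounded. For each circRNA the authors deposited a count of reads over the back-splice junction. The signal they deposited beside it, SRPBM, equalled this count scaled by a library total. Isoforms without a symbol (1.97% to 2.44% of counts) and those of other class codes (16.0% to 20.6%) were left out of gene sums.

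Features averaging at least 0.5 FPKM, and circRNAs read in at least 3 libraries, entered the two-sided edgeR quasi-likelihood fit (edgeR 4.0.16 under R 4.3.3), using TMM factors for linear RNA and the SRPBM totals for circRNAs, and Benjamini-Hochberg adjustment over all features, threshold 0.05. Intervals use the t quantile with edgeR's degrees of freedom. DESeq2 1.42.0 and limma 3.58.1 on log2(FPKM + 0.1) were alternatives, as were other filters, isoform choices, a replicate block and leaving out each library. Shares and ratios were compared with exact two-sided permutation tests (scipy 1.17.1). The scripts were tested on simulated data.

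Named were all members, for each its 2 most abundant isoforms and circRNAs, isoforms with an unadjusted p under 0.05 or without overlap and a share of at least 10%, from each list the 2 genes with the smallest p, and the 5 genes most like Nrbf2. The members and lists were chosen with earlier results of these data known.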

Additional observations from a re-analysis of the deposited data

How the results depend on the processing

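Of 647 alternative values with a sign, 602 kept their direction and 45 reversed it. The 602 include all values of Nrbf2, of its isoform ENSMUST00000077839 and of the r of the 5 genes most like Nrbf2. These were chosen by the same values, so that their kept direction adds no support. Of 95 alternative counts of called features, 30 moved by over 1.5 times. The cause was not tested. The Nrbf2 log2 difference ran from 0.82 to 1.30. With the replicate block it was 1.22, genes called fell from 5 to 0, isoforms called from 3 to 0, and circRNAs called went from 1 to 3. Same-numbered samples deviated with r of 0.155, 0.0893 and 0.0598, not all over 0.1, so they were taken to share only a number, although each sample correlated best with its own number, a hint from the data and not the design. The number of genes called was 47 with DESeq2, 0 with limma at either pseudocount, 2 without a filter, 0 with annotated isoforms, 0 with the top isoform, 0 with FPKM-derived counts and 0 to 17 with a library left out, the 17 without PS_high 1. Isoforms called were 978 with DESeq2, 22 with limma, 0 without a filter and 0 to 1 with a library left out, and partner isoforms 3 with DESeq2. circRNAs called were 2 with TMM, 4 without a filter, 2 from 10 reads and 0 to 3 with a library left out. With annotated isoforms only, reversed log2 differences were Becn1 -0.038, Uvrag -0.23, Gabarap -0.72, Rab7 0.97, Hgs -0.070, Pik3cb -0.42 and Pik3r2 0.36, and the ratios to Uvrag 0.099 (Atg14) and 0.054 (Rubcn). With the top isoform they were Becn1 -0.30, Atg14 1.08, Pik3r4 -0.53, Uvrag -0.51, Atg13 0.56, Atg9a 0.15, Atg16l1 0.026 and Nedd4 -0.71. limma gave Pik3r4 -0.044 and -0.037 and Hgs -0.021 and -0.010, FPKM-derived counts Pik3r4 -0.0054, FPKM the Rubcn isoform share -0.19, and counts the Pik3r4 to Pik3c3 ratio 0.013. With a library left out, ranges that crossed 0 were Becn1 -0.056 to 0.057, Atg14 -0.62 to 0.49, Pik3c3 -0.00075 to 0.11, Pik3r4 -0.019 to 0.15, Gabarap -0.024 to 0.47, Pik3r2 -0.41 to 0.0056, mmu_circ_0001601 -0.69 to 0.30, circRNA1912 -3.12 to 0.25, the Becn1 isoform share -33.1 to 10.6 and that of Rubcn -6.60 to 6.35 percentage points, and the ratios Atg14 to Uvrag -0.67 to 0.017, Becn1 to Pik3c3 -0.19 to 0.046 and Pik3r4 to Pik3c3 -0.30 to 0.019. Annotated isoforms also moved the circular share of Pik3c3 from -0.74 to -6.40 and that of Uvrag from -1.16 to -0.17 reads per 1000 counts. Merged circRNA pairs, FPKM-derived counts and the variants of likeness to Nrbf2 were chosen after seeing the data, and on FPKM Pfkfb4's r was 0.013. Back-splice reads of 62 in all limit what circles can show.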

Other observations

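An antisense transcript at Rubcn, MSTRG.15263.1, on the opposite strand and therefore left out of the gene sum, had 7.21, 8.62 and 6.73 CPM in the controls and 6.14, 6.55 and 4.83 in PS_high. Every PS_high library was below every control, as Rubcn itself was in CPM, though only narrowly, at 6.55 against 6.73 CPM. Of all isoforms tested, 7.86% had CPM without overlap in either direction. The log2 difference of MSTRG.15263.1 was -0.37 ± 0.25 (edgeR unadjusted p = 0.195, adjusted p = 0.99998).

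The circRNAs mmu_circ_0007212 and circRNA10182 of Pik3c3 start 1 base apart and share their end, and the table holds 1203 such pairs. They had 7 and 3 reads in all. The log2 difference was -1.03 ± 1.51 for the first alone and -1.67 for the merged pair, a merge chosen after seeing the data (edgeR adjusted p = 0.976 for each).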
